A study of Caenorhabditis elegans with 32 samples.

Results

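Whole worms of day 7 adults kept at 21% O2 were compared with whole worms of day 7 adults kept at 7% O2, in 4 libraries of each, 8 of the 32 samples of the series. The samples were taken by their labels, and no measured value entered the choice. All animals were adult hermaphrodites of strain KL123, which carries npr-1(ad609) X and iaIs25[Pgcy-37::GFP + unc-119(+)], so no animal in either group had wild-type npr-1, and a wild-type genotype was not part of the comparison. The gcy-37 promoter labels the O2-sensing neurons URX, AQR and PQR, and more weakly AVM and ASI. Both groups grew on OP50 bacteria, received mex-3 double-stranded RNA by feeding from the L3 stage, which keeps embryos from hatching, and were returned to OP50 on day 4 until collection on day 7. A whole-worm sample was a small part of the dissociated cell suspension of many pooled animals, set aside before the labelled neurons were sorted, so tissues that come apart poorly or cells that break could be lost from it. The day 1 whole worms at the same O2 levels, which were still on mex-3 RNAi bacteria, and the day 7 sorted neurons at the same O2 levels served for comparison, with 4 libraries in each group.

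Atmospheric air holds 21% O2, a level that worms with reduced NPR-1 activity avoid and that keeps URX, AQR and PQR tonically active, whereas 7% O2 lies near the level the animals prefer. Oxygen acts on the worm through these neurons and directly on tissues, where the prolyl hydroxylase EGL-9 uses O2 to mark the transcription factor HIF-1 for destruction. In the aging hermaphrodite the intestine is the site of yolk production, digestion and much of the defence against ingested bacteria, while body wall muscle declines and the germline stops producing self-progeny as sperm run out.

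Between 5365596 and 8906513 fragments were counted per day 7 whole-worm library. Totals averaged 6658360 ± 291344 at 21% O2 and 7712940 ± 1591850 at 7% O2 (SD, n = 4 each, exact two-sided permutation test of the means, p = 0.2, where 0.0286 is the smallest value 4 against 4 libraries allow). F31C3.14, annotated as noncoding and located within a gene for ribosomal RNA, took 46.4 ± 5.37% of the counts at 21% O2 and 50.04 ± 4.49% at 7% O2 (n = 4 each, exact p = 0.314 by the same test), so that protein-coding genes held 2429847 to 4638897 counts per library. Libraries correlated at 0.926 to 0.962 with each other at 21% O2 and at 0.942 to 0.963 at 7% O2 on the log2 scale, with no identical pair. Libraries of different O2 levels correlated nearly as well, at 0.920 to 0.961. Levels are given as CPM, a count divided by the size of its library and put on a common scale, after TMM scaling. TMM scaling adjusts libraries by a weighted, trimmed mean of log expression ratios. Of 46726 genes, 10894 had enough counts to be tested with edgeR's quasi-likelihood test, fitted to the 16 whole-worm libraries, and calls required p below 0.1 after Benjamini-Hochberg adjustment together with a change of 1.5-fold or more. The labels call the libraries biological replicates.

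Of the 10894 genes tested, 6 were called between 21% and 7% O2, and each of them was lower at 21% O2. These 6 genes make up 0.0551% of the genes tested. They encode a lysozyme (ilys-5), a yolk protein (vit-3), a pair of aspartyl proteases (asp-1 and asp-14), an infection response protein (F08G5.6, now named irg-4) and a protein with no assigned function here (Y39B6A.1). No gene was called higher at 21% O2, although 250 genes (2.29%) were higher and 383 (3.52%) were lower at an unadjusted p under 0.05. The median log2 change over all genes tested was -0.01.

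The smallest adjusted p belonged to ilys-5, an invertebrate-type lysozyme, an enzyme class that cleaves bacterial cell walls, on chromosome X from 6533490 to 6536840 (WBcel235). It had 63.1, 81.9, 80.99 and 90.5 CPM in the 21% O2 libraries, against 161, 166, 263 and 216 CPM in the 7% O2 libraries. The lowest library at 7% O2 thus lay well above the highest at 21% O2. Expression of ilys-5 fell by 1.35 on the log2 scale (standard error 0.20, adjusted p = 0.0108, edgeR), and the call held when any of the 8 libraries was left out.

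The yolk protein gene vit-3, on chromosome X from 3567355 to 3572549, had 437, 253, 367 and 235.4 CPM at 21% O2, against 1007, 741, 1158 and 768 CPM at 7% O2. It fell by 1.51 on the log2 scale (standard error 0.26, adjusted p = 0.0391, edgeR), and the groups did not overlap. Vitellogenins are yolk lipoproteins that the intestine secretes and oocytes take up through the receptor RME-2. The genes vit-3, vit-4 and vit-5 are close copies of each other, so fragments that map equally well to several of them were dropped by the mapping quality limit of the counting, and their separate values are less certain than those of single-copy genes. The exons of vit-3 also overlap another gene over 3.47% of their length.

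The aspartyl protease gene asp-1, on chromosome V from 19049562 to 19050752, encodes a lysosomal protease of the intestine and had 143, 152, 134 and 124 CPM at 21% O2, against 288, 340, 370 and 313 CPM at 7% O2. Both groups were tight, and asp-1 fell by 1.25 on the log2 scale (standard error 0.23, adjusted p = 0.0523, edgeR). A second protease of the same family, asp-14, on chromosome X from 6444185 to 6446664, had 10.4, 15.9, 22.2 and 7.13 CPM at 21% O2, against 33.9, 27.9, 58.7 and 43.5 CPM at 7% O2. It fell by 1.56 on the log2 scale (standard error 0.30, adjusted p = 0.0832, edgeR).

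F08G5.6 (irg-4), on chromosome IV from 12435833 to 12438236, is a gene induced by bacterial infection. It had 2.87, 7.03, 3.75 and 2.69 CPM at 21% O2, against 29.5, 7.38, 49.8 and 21.5 CPM at 7% O2. The groups only just separate, because replicate 2 of the 7% O2 group stands near the highest library at 21% O2, while the other three at 7% O2 are far above. F08G5.6 fell by 2.71 on the log2 scale (standard error 0.46, adjusted p = 0.0391, edgeR). Y39B6A.1, on chromosome V from 19201016 to 19203607, had 5.38, 4.51, 6.19 and 0.941 CPM at 21% O2, against 16.8, 15.6, 25.6 and 23.3 CPM at 7% O2, and fell by 2.27 on the log2 scale (standard error 0.43, adjusted p = 0.0821, edgeR).

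The number of calls was sensitive to the fit and to single libraries. With replicate number as a block 51 genes were called, all lower. DESeq2 called 39 on the 16 whole-worm libraries and 50 on the 8 of day 7, while edgeR on all 32 libraries called 0. Leaving out 21% O2 replicates 1, 2, 3 and 4 in turn left 2, 2, 2 and 1 genes, and leaving out 7% O2 replicates 1, 2, 3 and 4 left 1, 4, 1 and 5. Of the 8 such fits, vit-3 and F08G5.6 were called in 3 each, asp-14 in 2, asp-1 in 1 and Y39B6A.1 in 0, while every one of these fits kept the log2 changes negative, between -1.68 and -1.38 for vit-3, -3.11 and -2.25 for F08G5.6, -1.86 and -1.34 for asp-14, -1.31 and -1.18 for asp-1, and -2.50 and -1.92 for Y39B6A.1. The adjusted p of vit-3 was 0.28 without 7% O2 replicate 3, that of F08G5.6 was also 0.28 without it, and that of Y39B6A.1 was 0.445 without 21% O2 replicate 2.

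**Figure D1:**
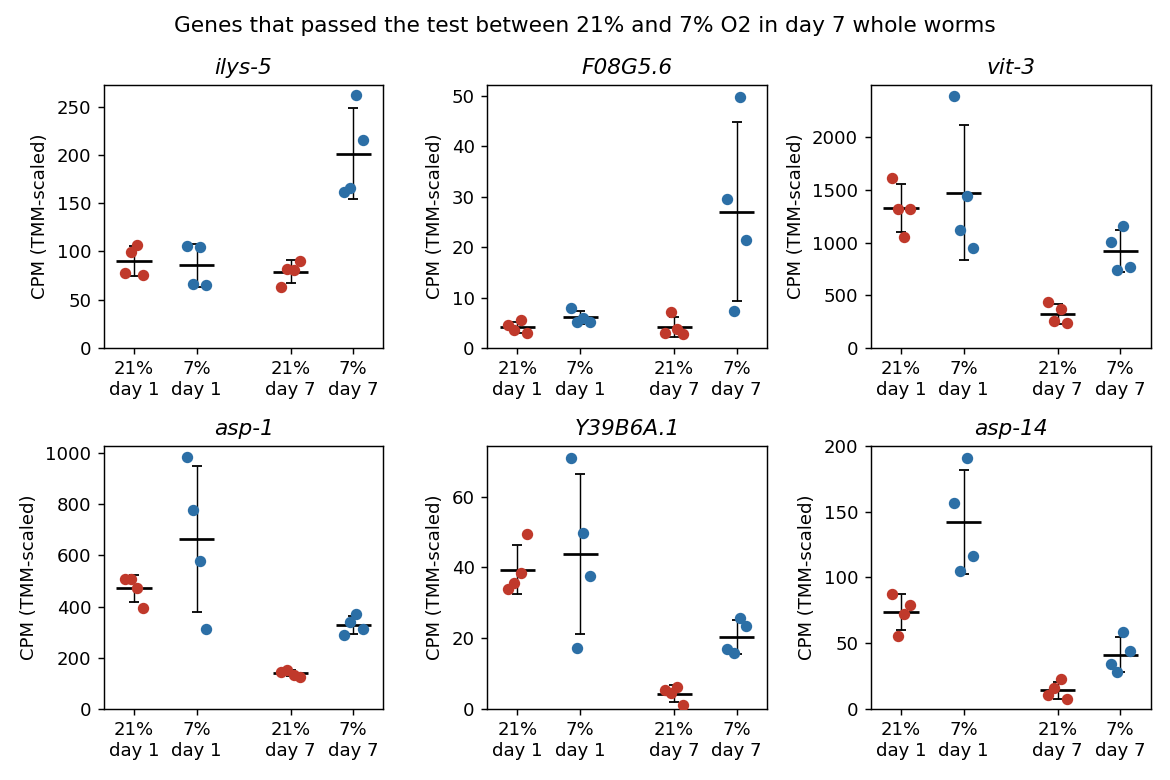
TMM-scaled CPM of the 6 genes called between O2 levels in day 7 whole worms, by library. Red points are 21% O2 and blue points 7% O2, day 1 on the left of each panel and day 7 on the right, with the mean (horizontal line) and SD (n = 4). On day 7 every red point lies below every blue point of the same gene, for example 124 to 152 against 288 to 370 CPM for asp-1.

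The negative changes among vitellogenins were not limited to vit-3. All 6 vitellogenin genes were tested and all 6 had negative log2 changes, with a median of -1.02, and 4 of them were lower at an unadjusted p under 0.05, where 3.52% of all genes were. Next to vit-3 on chromosome X, vit-4 had 294, 156, 287 and 187 CPM at 21% O2, against 772, 431, 790 and 527 CPM at 7% O2. Its log2 change of -1.45 (standard error 0.31) did not pass the test (adjusted p = 0.255, edgeR), although vit-4 was called in the fit of the 8 libraries alone (adjusted p = 0.0979, edgeR), with replicate number as a block (adjusted p = 0.000879, edgeR) and with DESeq2 (adjusted p = 0.00101 on 16 libraries). The abundant vit-5 had 8260, 7171, 10308 and 5781 CPM at 21% O2, against 14350, 12591, 14825 and 10702 CPM at 7% O2, a log2 change of -0.74 (standard error 0.24, adjusted p = 0.643, edgeR). For vit-4 and vit-5, too, the groups did not overlap.

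The log2 changes of vit-1, vit-2 and vit-6, named to complete the family, were -1.31, -0.47 and -0.37, with standard errors of 0.50, 0.27 and 0.30. Per kilobase of exon, vit-3 averaged 65.6 CPM at 21% O2 and 187 CPM at 7% O2, vit-4 46.8 and 128 CPM, and vit-1 36.003 and 89.1 CPM, whereas vit-6 averaged 3203 CPM at 21% O2 and 4150 CPM at 7% O2. Summed over the 6 genes, vitellogenins made up 41973, 29459, 42217 and 21976 CPM at 21% O2, against 60476, 46799, 53373 and 34250 CPM at 7% O2, so the summed levels overlapped between the groups and the sum at 7% O2 was 1.44 times that at 21% O2. The remaining genes of the list are intracellular lipid-binding proteins, secreted fatty acid and retinol-binding proteins, the yolk receptor and a transfer protein. Of the 22 listed genes tested, 17 had negative log2 changes, with a median of -0.36.

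Proteases of lysosomes and gut had mostly negative log2 changes. Cathepsin-type enzymes degrade ingested and autophagic protein. Of 23 such genes tested 2 were called lower, where 0.0551% of all genes tested were called. At an unadjusted p under 0.05, 10 were lower and 0 were higher, where 3.52% and 2.29% of all genes were. In all, 21 of the 23 had negative log2 changes, with a median of -0.64 against -0.01 for all genes, and in 9 of them the 21% O2 libraries all lay below the 7% O2 libraries, where 2.18% of all genes tested did. The aspartyl protease gene asp-13 had 6.45, 5.30, 3.75 and 4.17 CPM at 21% O2, against 11.2, 10.9, 13.3 and 11.4 CPM at 7% O2, with a log2 change of -1.25 (standard error 0.29, adjusted p = 0.307, edgeR). The aspartyl proteases numbered 12 tested genes, of which 11 had negative changes, and all 7 tested cathepsin B-like cpr genes had negative changes, with a median of -0.65. The summed level of the list was 1838, 1584, 1874 and 1271 CPM at 21% O2, against 2594, 2566, 2786 and 2184 CPM at 7% O2, and these sums did not overlap.

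Lysozymes had the lowest median of the lists with at least 5 genes tested. Of 7 tested, 6 had negative log2 changes, with a median of -1.11. At an unadjusted p under 0.05, 4 were lower, where 3.52% of all genes were. The intestinal lysozyme gene lys-1 had 39.1, 22.3, 34.4 and 31.1 CPM at 21% O2, against 67.4, 62.8, 97.4 and 46.3 CPM at 7% O2. This is a log2 change of -1.11 (standard error 0.27, adjusted p = 0.342, edgeR), with no overlap. Its neighbour on chromosome V, lys-2, had 7.71, 5.17, 11.2 and 4.30 CPM at 21% O2, against 13.05, 19.5, 19.9 and 13.7 CPM at 7% O2, again without overlap. The most abundant lysozyme gene, lys-7, named for its share of the total, averaged 626 ± 218 CPM at 21% O2 and 705 ± 157 CPM at 7% O2, a difference within the spread. It made the summed level of the lysozymes overlap between the groups.

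Other genes linked to defence showed the same sign with fewer separate groups. Of 36 tested antimicrobial and infection response genes outside the lysozymes and lectins, 29 had negative log2 changes, with a median of -0.56, and 5 were lower at an unadjusted p under 0.05, where 3.52% of all genes were, with 0 higher. Among them dod-22, which encodes a secreted protein with a CUB-like domain, had 0.717, 1.46, 0.489 and 0 CPM at 21% O2, against 3.63, 5.46, 2.67 and 3.49 CPM at 7% O2, and nlp-29, an epidermal antimicrobial peptide, had 7.17, 4.11, 3.91 and 2.15 CPM against 9.42, 11.2, 16.2 and 9.48 CPM. Both genes are separate between the groups but were not called (adjusted p = 0.765 for dod-22 and 0.788 for nlp-29, edgeR). C-type lectins, which bind sugars and include many pathogen-responsive genes, had 40 of 59 tested members with negative changes and a median of -0.37, and 8 were lower and 1 higher at an unadjusted p under 0.05, where 3.52% and 2.29% of all genes were. The lectin gene clec-67 was near the limit of detection at 21% O2, with 0.358, 0.398, 0.163 and 0.807 CPM, against 2.27, 4.28, 2.26 and 1.81 CPM at 7% O2 (log2 change -2.55, standard error 0.56, adjusted p = 0.255, edgeR). For clec-190 the 21% O2 libraries had 4.84, 5.97, 7.33 and 9.81 CPM, against 30.98, 13.6, 39.8 and 17.7 CPM at 7% O2.

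Markers of the intestine moved with these lists. The summed level of 9 intestinal markers was 259, 245, 271 and 200.3 CPM at 21% O2, against 461, 517, 557 and 446 CPM at 7% O2, 2.03 times higher at 7% O2, and 7 of the 8 markers tested had negative changes. This sum includes asp-1 and cpr-1, which are also members of the protease list. Without these, the other 7 markers summed to 86.6, 68.7, 106.4 and 44.9 CPM at 21% O2, against 126, 138, 136 and 90.4 CPM at 7% O2, 1.5997 times higher at 7% O2 with an overlap between the groups. The structural and transport markers had log2 changes of -0.80 for act-5 (standard error 0.45), -0.71 for ifb-2 (standard error 0.50), -0.50 for vha-6 (standard error 0.36) and 0.11 for pept-1 (standard error 0.39), none called. For ges-1 the log2 change was -1.16 (standard error 0.48), with no overlap between the groups, and for elt-2 it was -0.72 (standard error 0.75). Neither of these was called. In bulk samples, fewer intestinal cells in the suspension and less RNA of these genes per cell cannot be told apart, and the part of the markers in the results above was not tested.

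**Figure D2:**
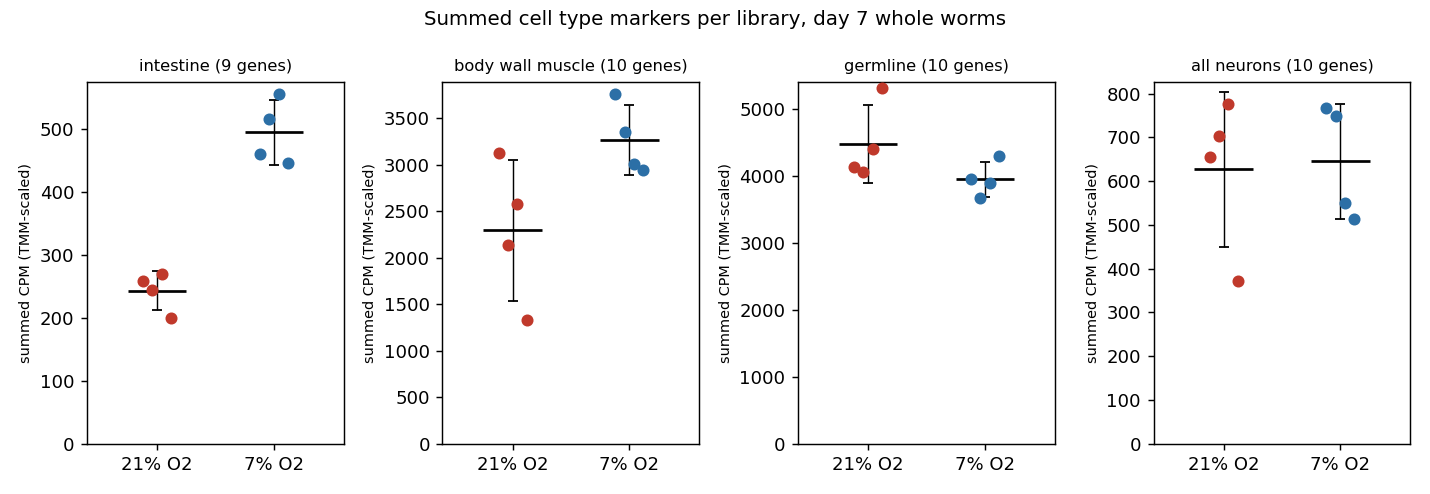
Summed TMM-scaled CPM of marker genes of the intestine (9 genes), body wall muscle (10), germline (10) and all neurons (10) in each day 7 whole-worm library, 21% O2 in red on the left and 7% O2 in blue on the right, with mean and SD (n = 4). Intestinal sums of 200.3 to 271 CPM at 21% O2 lie below those of 446 to 557 CPM at 7% O2, whereas the groups overlap in the other three panels.

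Genes of the body wall muscle sarcomere, the contractile unit, had mostly negative log2 changes on day 7, with no member called. All 36 listed genes were tested, 31 had negative log2 changes and 13 were lower at an unadjusted p under 0.05, where 3.52% of all genes were, with 0 higher. The median was -0.39, and 11 genes had no overlap between the groups, all of them lower, where 2.18% of all genes were. With replicate number as a block 6 members were called, and with DESeq2 2 members on 16 libraries and 3 on 8, so the absence of calls depended on the fit. For pat-10, the body wall muscle troponin C, the 21% O2 libraries had 76.7, 55.9, 67.6 and 32.7 CPM, against 114, 126, 123.1 and 99.4 CPM at 7% O2 (log2 change -0.99, standard error 0.26, adjusted p = 0.444, edgeR). The calponin-like gene T25F10.6 (clik-1) had 99.1, 51.2, 78.9 and 49.7 CPM at 21% O2, against 172, 115, 111 and 140 CPM at 7% O2. A myosin light chain gene, mlc-3, had 80.8, 76.8, 107 and 53.5 CPM at 21% O2, against 131, 114, 144 and 135 CPM at 7% O2. In all of these genes replicate 4 of the 21% O2 group was the lowest of the 8 libraries.

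Summed over the 36 sarcomere genes, the level was 6797, 5459, 6042 and 3717 CPM at 21% O2, against 8346, 7633, 6967 and 6865 CPM at 7% O2. These sums did not overlap, but 21% O2 replicate 1 stood close to the lowest libraries at 7% O2. Without 21% O2 replicate 4 the median of the list was -0.27, and leaving out other single libraries gave medians between -0.53 and -0.35. The 10 muscle markers, all of them also in the sarcomere list, summed to 1330 to 3128 CPM at 21% O2 and 2944 to 3764 CPM at 7% O2. Replicate 4 of the 21% O2 group was also the lowest of the 8 in the summed markers of pharynx, at 55.8 CPM against 199 to 242 CPM in the other 21% O2 libraries and 137 to 236 CPM at 7% O2, and of all neurons, at 372 CPM. The part of this library in the muscle result was not tested beyond leaving it out.

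**Figure D3:**
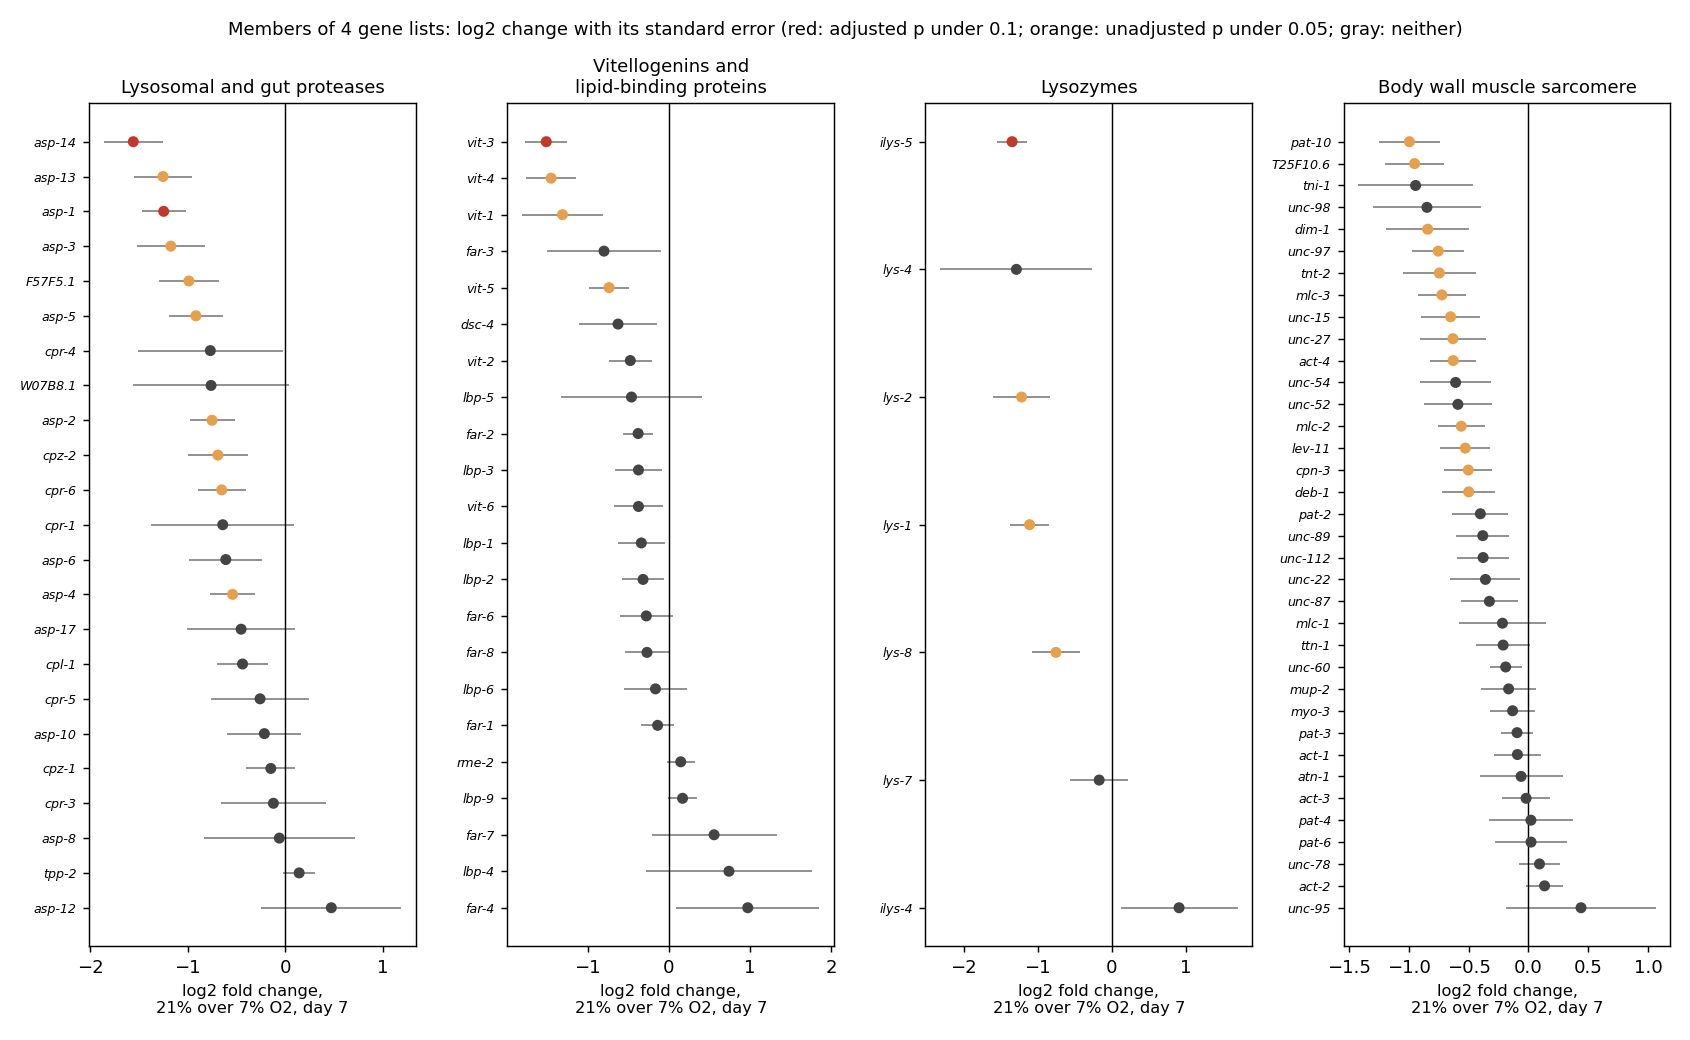
Log2 fold change of 21% over 7% O2 in day 7 whole worms, with its standard error, for every tested member of the lists of lysosomal and gut proteases (23 genes), vitellogenins and lipid-binding proteins (22), lysozymes (7) and sarcomere genes (36). Red points have an adjusted p under 0.1, orange points an unadjusted p under 0.05, and 21, 17, 6 and 31 points lie left of 0.

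Genes of proliferation and of the germline had mostly small positive log2 changes, and none of them passed the test. Of 40 genes of DNA replication and the cell cycle, 35 had positive log2 changes, with a median of 0.11, and 3 were higher at an unadjusted p under 0.05, where 2.29% of all genes were. The replicative helicase subunit gene mcm-2 had 194, 150.5, 176 and 197 CPM at 21% O2, against 119.6, 144, 115 and 128 CPM at 7% O2 (log2 change 0.50, standard error 0.15, adjusted p = 0.548, edgeR). Genes of meiosis had a median of 0.17, with 21 of 28 positive. Oocyte and maternal genes had a median of 0.15, with 30 of 37 positive, and in 3 of these the 21% O2 libraries all lay above the 7% O2 libraries, where 1.39% of all genes tested did. Their summed level was 17247, 15900, 16805 and 20000 CPM at 21% O2, against 16884, 14818, 15177 and 17230 CPM at 7% O2, an overlap.

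The 10 germline markers all had positive changes and summed to 4050 to 5311 CPM at 21% O2 and 3663 to 4292 CPM at 7% O2. The highest sum was that of 21% O2 replicate 4, the library that was lowest of the 8 in the summed intestinal markers, proteases and vitellogenins and highest in the summed oocyte and DNA replication genes. Because levels are shares of a library, a lower share of intestinal and muscle RNA and a higher share of germline RNA cannot be told apart by these values. Sperm markers were nearly absent, at 2.55 to 4.51 CPM at 21% O2 and 0.885 to 4.92 CPM at 7% O2 in sum, and 2 of the 8 markers, msp-19 and msp-55, had no counts in any day 7 whole-worm library. The epidermal gene rol-6 and the glial gene hlh-17 likewise had no counts, whereas the other listed markers of these tissues, of neurons and of coelomocytes were detected. Markers of all neurons averaged 627 CPM at 21% O2 and 645 CPM at 7% O2, and those of O2-sensing neurons 17.99 and 18.8 CPM.

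Genes outside the lists that separated the groups were also named by rule. Among the 12 lower genes with the smallest p and no overlap, D1054.11 (ule-3) had 132, 151, 95.8 and 110.2 CPM at 21% O2, against 199, 194, 164 and 205 CPM at 7% O2 (log2 change -0.64, standard error 0.14, adjusted p = 0.255, edgeR). Y7A5A.1 had 7.89, 4.90, 4.56 and 2.69 CPM at 21% O2, against 14.4, 17.4, 17.6 and 11.02 CPM at 7% O2. The other genes of this set are the 6 called genes, clec-67, vit-4, asp-13 and lys-1.

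None of the 12 higher genes with the smallest p was called in the main fit. Under other fits W02D7.6 was called higher with DESeq2 on the 16 and on the 8 libraries. Y106G6G.1 was called higher with DESeq2 on the 16 libraries and with no filter on low counts. Y106G6G.1 was read at 0.358, 4.11, 2.44 and 1.21 CPM at 21% O2, 57 counts in all, and at 0 counts in every 7% O2 library. The mean at 21% O2, 2.03 CPM, was 18.7 times the limit of 3 counts over the 7% O2 group, which is 0.109 CPM. This ratio covers counting error at 7% O2 only, and neither counting error at 21% O2 nor the spread between libraries. For a single 7% O2 library the same limit is 0.340 to 0.615 CPM, and the lowest 21% O2 library, at 0.358 CPM, lies within that range. W02D7.6 had 13.3, 12.3, 8.47 and 20.3 CPM at 21% O2, against 4.77, 3.54, 7.999 and 3.77 CPM at 7% O2, a log2 change of 1.45 (standard error 0.39, adjusted p = 0.456, edgeR). The nuclease gene crn-1 had 38.0, 55.3, 46.8 and 53.8 CPM at 21% O2, against 34.9, 21.4, 35.9 and 31.4 CPM at 7% O2, and the coronin gene cor-1, whose product binds actin, had 6.63, 13.9, 4.07 and 9.81 CPM against 3.63, 2.80, 3.90 and 3.49 CPM. In both the lowest library at 21% O2 came close to the highest at 7% O2. The neuropeptide gene flp-8, expressed in URX among other neurons, had 1.43, 3.45, 5.38 and 3.63 CPM at 21% O2, against 0.908, 0.443, 1.03 and 1.26 CPM at 7% O2 (log2 change 1.92, standard error 0.62, adjusted p = 0.594, edgeR). The remaining genes of the 12 were Y34D9A.3, sra-14, fbxa-193, str-179, M4.1, madf-3 and snpc-3.4, with adjusted p-values from 0.548 to 0.668 (edgeR).

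Genes of the response to oxygen itself had no member called on day 7, where 0.0551% of all genes tested were called. HIF-1 drives genes of the hypoxia response when EGL-9 lacks O2. On day 7, 0 of 16 tested pathway genes reached an unadjusted p under 0.05, where 5.81% of all genes did. This share is too small to set 0 of 16 apart. The median log2 change of the 16 was -0.02. The gene hif-1 had 207, 168, 171 and 126 CPM at 21% O2, against 214, 195, 177 and 149.5 CPM at 7% O2 (log2 change -0.13, standard error 0.17). For egl-9 the 21% O2 libraries had 54.8, 75.03, 52.6 and 22.7 CPM, against 38.1, 37.3, 44.9 and 35.1 CPM at 7% O2, and the HIF-1 target gene nhr-57 had 11.3, 10.3, 14.01 and 3.23 CPM against 4.54, 8.70, 8.41 and 3.63 CPM. Both overlapped between the groups. Antioxidant enzymes, the superoxide dismutases, catalases, peroxiredoxins and glutathione enzymes, had a median of -0.04 over 24 tested genes, and 1 of them was lower at an unadjusted p under 0.05. Glutathione S-transferases had a median of -0.44 over 23 genes, with 1 lower and 1 higher at an unadjusted p under 0.05. The counts of both lists lie near the shares over all genes, 3.52% lower and 2.29% higher. A difference in protein stability or activity would not appear in these counts.

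Enzymes that modify lipophilic compounds were mostly below 0 on the log2 scale. UDP-glucuronosyltransferases, which attach sugar to lipophilic molecules, had 40 of 50 negative changes, a median of -0.52, and 6 genes lower at an unadjusted p under 0.05, where 3.52% of all genes were, with 0 higher. The gene ugt-22 had 6.09, 5.43, 8.15 and 6.86 CPM at 21% O2, against 28.3, 7.38, 36.9 and 17.3 CPM at 7% O2, with an overlap at 7% O2 replicate 2, the library that was also low in F08G5.6. Cytochrome P450s had 24 of 34 negative and a median of -0.40. At an unadjusted p under 0.05, 3 of them were lower and 1 higher, and in 0 of them were the groups without overlap. Cuticle collagens had 37 of 50 negative, a median of -0.35, and 6 lower with no overlap, where 2.18% of all genes were, among them col-122, with 30.6, 34.9, 28.7 and 20.3 CPM at 21% O2, against 53.3, 44.1, 57.8 and 55.8 CPM at 7% O2. Transthyretin-related genes had 32 of 35 negative and a median of -0.31. Only 1 of them was lower at an unadjusted p under 0.05 and 0 were higher, near the share over all genes, and the median lies within the 25th to 75th percentile of all genes (-0.34 to 0.21).

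Lists of protein synthesis and energy genes had small medians, of a size like those of the germline and proliferation lists. Cytosolic ribosomal protein genes had a median of 0.13 over 79 genes, 61 of them positive. Of these, 0 reached an unadjusted p under 0.05 in either direction, where 5.81% of all genes did. Translation factors had a median of 0.03 over 41. Mitochondrial ribosomal protein genes had a median of 0.12 over 68, with 44 positive and 3 higher at an unadjusted p under 0.05, where 2.29% of all genes were. Proteasome subunits had a median of 0.09 over 33, with 25 positive and 2 higher by the same measure. The genes of the mitochondrial genome had a median of -0.11 over 12, and the nuclear genes of the respiratory chain 0.10 over 36. Genes of the insulin/IGF pathway, a regulator of lifespan, had a median of 0.12 over 14, and the only member at an unadjusted p under 0.05 was aap-1, the regulatory subunit of a lipid kinase, with a log2 change of 0.37 (standard error 0.15, adjusted p = 0.788, edgeR). Neuropeptide genes had a median of -0.14 over 65, globins -0.27 over 18, guanylate cyclases and their signalling partners -0.19 over 26, and heat shock and ER chaperones 0.04 over 19.

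**Figure D4:**
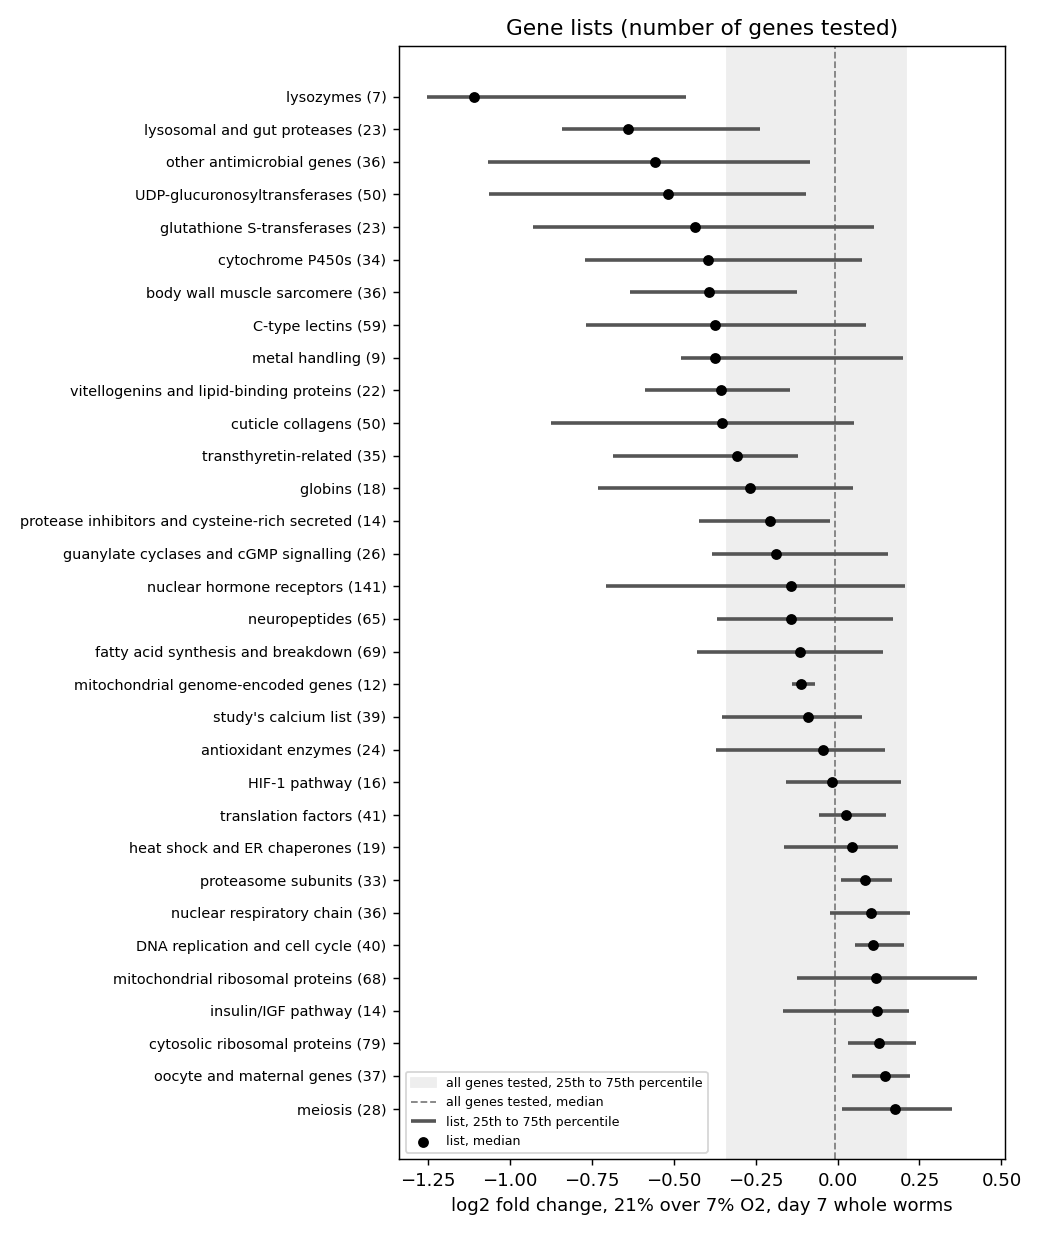
Median log2 fold change of 21% over 7% O2 in day 7 whole worms for each list with at least 5 genes tested (points, with the 25th to 75th percentile as lines, number tested in parentheses), ordered by median. The shaded band and dashed line are the same percentiles and the median of all 10894 genes tested. Lysozymes at -1.11 and proteases at -0.64 lie farthest to the left, and meiosis genes at 0.17 farthest to the right.

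The same contrast on day 1 addresses whether an O2 difference is particular to older animals. In day 1 whole worms 1 of 10894 genes (0.00918%) was called, Y11D7A.3, higher at 21% O2. At an unadjusted p under 0.05, 624 genes (5.73%) were higher and 683 (6.27%) lower, against 250 and 383 on day 7. The day 1 contrast was run in the main fit only, whereas the day 7 count changed widely between fits. The paper, which used DESeq2, reported more whole-worm genes differing between O2 levels on day 1 than on day 7. None of the 6 genes called on day 7 was called on day 1, where only 1 gene was called, so this does not tie the 6 to older animals. For ilys-5 the day 1 means were 89.6 ± 15.6 CPM at 21% O2 and 85.4 ± 22.8 CPM at 7% O2 (SD, n = 4 each), a log2 change of 0.07 (standard error 0.19), so the day 7 level at 7% O2 stood apart from the other three groups. For asp-14 the day 1 means were 73.4 ± 13.8 CPM at 21% O2 and 142 ± 39.5 CPM at 7% O2 (SD, n = 4 each), a log2 change of -0.95 (standard error 0.28, adjusted p = 0.199, edgeR), of the same sign as on day 7. For vit-3 the day 1 means were 1327 ± 229 and 1475 ± 643 CPM at 21% and 7% O2 (SD, n = 4 each). Its day 1 log2 change was -0.15 (standard error 0.25). Day 1 changes were also negative for asp-1 (-0.50, standard error 0.22), F08G5.6 (-0.57, standard error 0.44) and Y39B6A.1 (-0.15, standard error 0.38). The day 1 groups overlapped in each of the 6 genes except asp-14. For asp-14 the day 1 libraries had 54.98 to 87.5 CPM at 21% O2 and 104.5 to 191 CPM at 7% O2, without overlap, as on day 7.

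The difference between the ages was tested directly, as an interaction of age and O2 in the same fit. It was called for 23 genes (0.211% of those tested), 19 with a day 7 log2 change below that of day 1 and 4 above it. Among the 6 genes called on day 7, ilys-5 was one of the 23 (difference of log2 changes -1.42, standard error 0.28, adjusted p = 0.0968, edgeR), and the other 5 were not (adjusted p = 0.14 for vit-3, 0.143 for Y39B6A.1, 0.187 for F08G5.6, 0.333 for asp-1 and 0.529 for asp-14, edgeR). The smallest interaction p belonged to Y11D7A.3 (-2.82, standard error 0.42, adjusted p = 0.0142, edgeR), the gene called on day 1. The other named genes with an interaction were asp-13 (-1.80, standard error 0.40), col-122 (-1.88, standard error 0.40), clec-1 (-1.66, standard error 0.31) and madf-3 (2.02, standard error 0.44). The collagen gene col-122 averaged 28.6 CPM in day 7 worms at 21% O2, against 52.8 CPM at 7% O2, while its day 1 means were 334 CPM at 21% O2 and 167 CPM at 7% O2. For the lectin gene clec-1 the day 7 means were 44.3 CPM at 21% O2 and 66.3 CPM at 7% O2, and the day 1 means 49.04 and 23.2 CPM. The number of interaction calls was 48, 12, 15 and 6 without 21% O2 replicates 1 to 4 of day 7, and 5, 2, 1 and 27 without 7% O2 replicates 1 to 4 of day 7.

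Several lists had medians of opposite sign at the 2 ages. Sarcomere genes had a median of 0.48 on day 1 and of -0.39 on day 7. On day 1, 16 of the 36 were higher and 0 lower at an unadjusted p under 0.05, where 5.73% and 6.27% of all genes were. Cuticle collagens had 0.71 on day 1 and -0.35 on day 7, transthyretin-related genes 0.55 and -0.31, UDP-glucuronosyltransferases 0.38 and -0.52, and meiosis genes -0.38 and 0.17. Proteases were negative at both ages, with medians of -0.45 on day 1 and -0.64 on day 7. HIF-1 pathway genes had a median of 0.79 on day 1 and -0.02 on day 7. On day 1, 7 of the 16 were higher and 0 lower at an unadjusted p under 0.05, where 5.73% and 6.27% of all genes were. In day 7 worms the summed HIF-1 list averaged 372 ± 68.7 CPM at 21% O2 and 378 ± 30.8 CPM at 7% O2, and in day 1 worms 559 ± 59.8 CPM at 21% O2 and 368 ± 58.6 CPM at 7% O2 (SD, n = 4 each). The food and the duration of mex-3 RNAi differed between the ages, so age cannot be told apart from these. The gene mex-3 itself had 12.9 ± 2.21 CPM at 21% O2 and 9.49 ± 5.88 CPM at 7% O2 on day 7 (SD, n = 4 each), a log2 change of 0.44 (standard error 0.64).

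**Figure D5:**
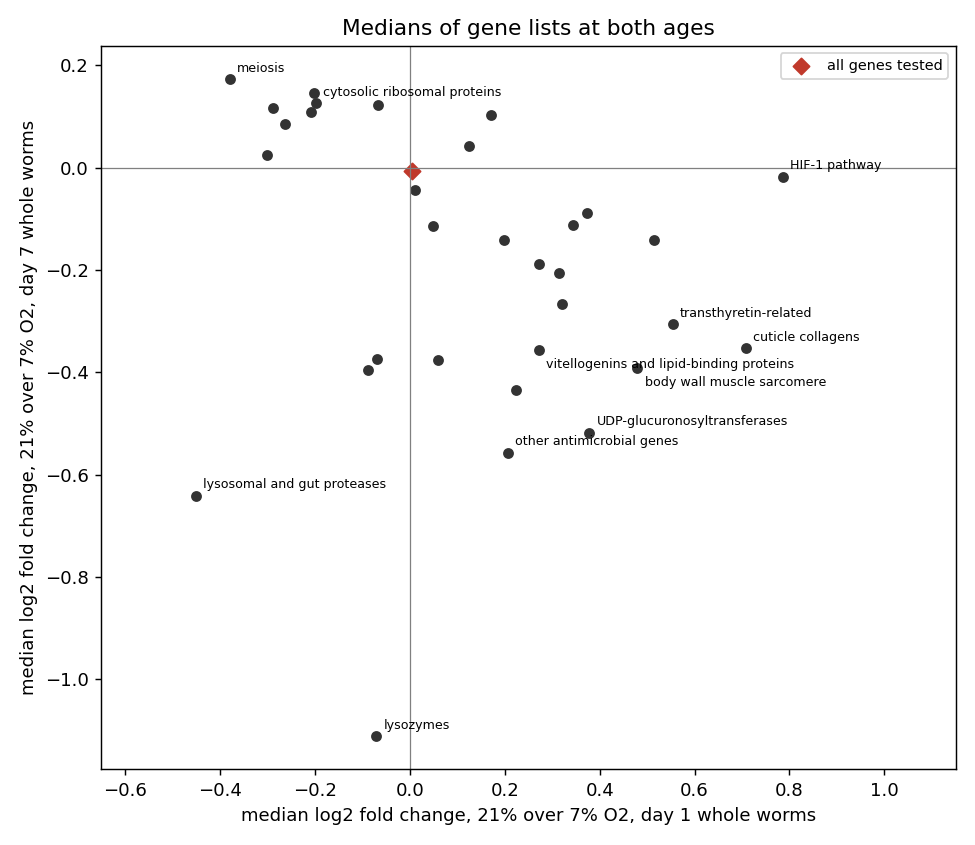
Median log2 fold change of 21% over 7% O2 in whole worms of day 1 (horizontal axis) and day 7 (vertical axis) for each list with at least 5 genes tested, with the median of all genes as a red diamond. Sarcomere genes lie at 0.48 and -0.39, HIF-1 pathway genes at 0.79 and -0.02, and lysozymes at -0.07 and -1.11.

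Sorted neurons of day 7 animals at the same O2 levels were used to ask whether the differences were shared with those samples. The interaction of sample type and O2, in a fit of the 16 day 7 libraries, was called for 2 of 11082 genes (0.018%), cyp-31A5 and C53B7.3, both of which differed between O2 levels in the neurons and neither of which was called in whole worms. None of the 6 genes called in whole worms passed this test, with adjusted p-values from 0.78 to 0.972 (edgeR), which does not show that their O2 changes were alike. The protease gene asp-14 had the opposite sign in neurons, at 9.68 CPM at 21% O2 and 5.86 CPM at 7% O2, a log2 change of 0.73 (standard error 0.90, adjusted p = 0.76, edgeR). So did crn-1, with 5.75 CPM at 21% O2 and 25.97 CPM at 7% O2 in neurons (log2 change -2.18, standard error 0.51, adjusted p = 0.0839, edgeR). Its interaction was not called (adjusted p = 0.433, edgeR). The neuron change of vit-4 kept its sign (log2 change -1.53, standard error 0.32, adjusted p = 0.0478, edgeR). The lysozyme gene ilys-5 averaged 18.6 CPM in neurons at 21% O2 and 54.96 CPM in neurons at 7% O2, a log2 change of -1.57 (standard error 0.32, adjusted p = 0.0463, edgeR), of the same sign as in whole worms. The neuron samples had lower levels of vit-3, at 79.9 CPM at 21% O2 and 151 CPM at 7% O2, with a log2 change of -0.92 (standard error 0.34, adjusted p = 0.217, edgeR). Same-numbered neuron and whole-worm samples may come from the same animals, since a whole-worm sample was taken from the suspension that was sorted, so these are not independent measurements, and the fit above ignores the pairing. With each same-numbered pair of an O2 level as a block, chosen after seeing the data, the interaction was called for 0 genes (edgeR, 490 at an unadjusted p under 0.05), and DESeq2 without the block called 63. The gene gcy-37, which marks the sorted neurons, had 7.71, 17.9, 6.52 and 3.63 CPM in whole worms at 21% O2, against 16.3, 8.26, 9.43 and 6.69 CPM at 7% O2, and did not differ beyond the spread.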

How the data were processed

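The file held counts of fragments per gene for 32 libraries, and the 8 whole-worm libraries of day 7 at 21% and 7% O2 were the subject here. The deposited counts are whole numbers without normalization. Per the labels and the methods, the authors trimmed reads with Cutadapt 1.9, aligned them to WBcel235 with STAR 2.5.2b, removed features annotated as ribosomal RNA and summed unstranded fragments over the exons of each gene in featureCounts 1.5.1. Reads of a gene and an overlapping antisense gene can therefore not be told apart, and the ribosomal RNA that F31C3.14 overlaps stayed in the totals.

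Genes were kept with filterByExpr (minimum count 10), scaled by TMM and tested, two-sided, with the robust quasi-likelihood F test of edgeR 4.0.16 in R 4.3.3 on the 16 whole-worm libraries, with Benjamini-Hochberg adjustment. Calls required p below 0.1 after adjustment together with a change of 1.5-fold or more. The standard error of a log2 change is its absolute value divided by the square root of F. The interaction with sample type used the 16 day 7 libraries. Alternatives were DESeq2 1.42.0, other library sets, RLE size factors, other filters and thresholds, genes that overlap ribosomal RNA left out, a block for replicate number, and fits without single libraries. The edgeR fits were also run on simulated counts. Coordinates and overlaps are from Ensembl release 115 of WBcel235, which held 46427 of 46726 gene IDs.

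The genes named are those called, the 12 higher and 12 lower with the smallest p among genes with a fold change of at least 1.5 and no overlap between the groups, in each of 33 lists the members called and the 3 with the smallest p (not all are printed), and mex-3, gcy-37 and hif-1. Marker genes, F31C3.14, vit-1, vit-2, vit-6, lys-7, Y11D7A.3, cyp-31A5 and C53B7.3 were named outside this rule, all but the markers after their values were seen. The comparison, the lists and the markers were chosen with earlier results of these data known, and 3 list entries matched no gene. With 4 libraries a group, small changes cannot be resolved.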

Additional observations from a re-analysis of the deposited data

Results flagged for a closer look

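The named genes, the summed markers and the library measures gave 250 groups of 4 libraries. In 11 of these groups 1 library lay far from the rest, a share that chance gives in about 1 of 20 groups. For sra-14, msp-76, msra-1 and gcy-31 the other libraries of the flagged group read 0 CPM. Any count in 1 library is flagged there, so that share does not apply to them, and these values lie near the limit of detection. In the 21% O2 group these were replicate 4 for madf-3 (18.1505 CPM), fat-1 (232.864 CPM) and mrpl-21 (1.74782 CPM), replicate 1 for msra-1 (0.17921 CPM), replicate 2 for gcy-31 (0.397679 CPM) and replicate 3 for glh-2 (123.032 CPM). In the 7% O2 group they were replicate 3 for sra-14 and msp-76 (0.2051 CPM each), replicate 4 for str-179 (0 CPM) and glb-25 (0.557898 CPM), and replicate 2 for akt-1 (122.29 CPM).

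The O2 difference on day 7 minus that on day 1, tested as an interaction with edgeR, passed the threshold for 5 genes named by rule and for Y11D7A.3 (-2.82, adjusted p = 0.0142), which was named outside the rule. It was -1.41778 for ilys-5 (adjusted p = 0.0968), -1.80144 for asp-13 (adjusted p = 0.0984), -1.88129 for col-122 (adjusted p = 0.0984), -1.66111 for clec-1 (adjusted p = 0.0707) and 2.02042 for madf-3 (adjusted p = 0.0968), on the log2 scale. In all, 23 genes differed between the ages and 2 genes between whole worms and neurons.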

How the results depend on the processing

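The 6 calls became 14 with the 8 day 7 libraries alone, 0 with all 32 libraries (edgeR, 233 genes at an unadjusted p under 0.05, and DESeq2, run on other library sets, called 39 and 50), 57 with no filter on low counts (8 higher, 49 lower), 39 with DESeq2 on the 16 libraries (3 higher, 36 lower), 50 with DESeq2 on the 8 libraries (2 higher, 48 lower) and 3 at an adjusted p under 0.05. The fits without 1 library called 1 to 5 genes. The age interaction was called for 44 genes with RLE size factors, 298 with DESeq2, and 1 to 48 without 1 library, and the sample type interaction for 63 genes with DESeq2 and 0 (edgeR, 490 at an unadjusted p under 0.05) with same-numbered whole-worm and neuron libraries as a replicate block, an alternative chosen after seeing the data. Replicate numbers were also fitted as a block, since the groups share them: 51 genes were called between O2 levels, all lower, and 474 for the age interaction. Deviations of same-numbered libraries correlated at 0.146, 0.0615, 0.0613 and 0.275. These values are low, but each of the 8 libraries correlated best with its own number, a hint of pairing from the data and not from the design. The labels do not state that the numbers pair the samples, and the main fit used no block. Whether the numbers mark a shared culture or day is not settled here. Of the 6 genes, ilys-5 was called in 16 of 17 alternatives, vit-3 and F08G5.6 in 11, asp-1 in 9, and Y39B6A.1 and asp-14 in 6. No log2 change of a called gene reversed. Of the other named genes, 17 were called under at least 1 alternative, among them vit-4, vit-5, lys-1, pat-10 and clec-67. The causes of these shifts were not tested.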
